A study of Homo sapiens with 16 samples.

Results

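The 10 genes described here encode the core proteins of small leucine-rich proteoglycans (DCN, BGN and LUM), of basement membrane heparan sulfate proteoglycans (HSPG2 and AGRN), of the syndecans (SDC1, SDC2, SDC3 and SDC4) and of a glypican (GPC1). They were taken by symbol from the deposited expression table, where all 10 were found among 23340 genes, 28 further entries with a symbol turned into a date being left out. Testing was limited to genes whose level, the power of 2 given by the deposited log2 value, reached 10 in at least 2 libraries. By that rule 8 of the 10 were tested, and BGN and LUM were not.

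A proteoglycan is a core protein that carries long sulfated sugar chains. Syndecans span the plasma membrane and glypicans are tied to it by a lipid anchor. The heparan sulfate chains of both hold growth factors and matrix proteins at the cell surface. Perlecan (HSPG2) and agrin (AGRN) are laid down in basement membranes, whereas decorin (DCN), biglycan (BGN) and lumican (LUM) bind collagen in the stroma, and decorin and biglycan also bind TGF-β. In normal mammary epithelium SDC1 is the prominent syndecan, and small leucine-rich proteoglycans are mostly products of fibroblasts.

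The cells were MCF10A, an immortal line of human breast epithelium that forms no tumours, kept in medium with EGF, cholera toxin, insulin, hydrocortisone and horse serum. A stock overexpressing PHF8, a JmjC histone demethylase, was set against a Mock stock with the empty vector. Each stock was sampled without treatment and after 24, 48 and 72 h with TGF-β1 at 5 ng/ml, a cytokine that induces epithelial-mesenchymal transition (EMT) in such cells. This gave 8 groups of 2 libraries, of which replicate 1 came from the first round of RNA sequencing and replicate 2 from the second. Each genotype is 1 stock, and no label says whether the replicates were separate cultures. The p-values therefore measure the spread between these libraries, which may be technical.

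The deposited values are on a log2 scale and are comparable to normalised read counts. The sum of 2 raised to the values lay between 18.8 M and 21.2 M per library, but true depth is unknown. Replicates correlated across genes at r of 0.9822 to 0.9924. The PHF8 gene itself lay between 13.64 and 14.73 in the PHF8 stock and between 9.26 and 9.72 in the Mock stock, a difference of 4.74 ± 0.166 (model SE). SMAD7, a target of TGF-β signalling, was higher by 1.99 ± 0.17 on the log2 scale after 72 h in the mean of both stocks. All 12 epithelial markers passed the filter for testing, while of 9 fibroblast markers 4 passed. Of these, FAP lay between 9.07 and 12.49, COL1A1 between 6.60 and 10.45, COL6A3 between 5.17 and 11.27 and COL1A2 between 2.09 and 5.00. TCF21 was at 0 and COL3A1 and THY1 were below 0 throughout. The 4 PHF8 libraries of round 1 stood apart in several of the genes below. Of the 12 epithelial markers, 4 (TP63, CDH1, KRT18 and SFN) were lowest in the PHF8 library of round 1 at all 4 times, 7 at 1 to 3 of the times, and 1, KRT8, at none, being highest there in untreated cells. An example is a TP63 level of 9.38 at 72 h against 11.19 to 11.34 in the other 3 libraries of that time.

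SDC4, GPC1 and HSPG2 are shown with 300 bases of promoter (250 before to 50 after the start, RefSeq, GRCh38.p14, given 5′ to 3′ on the gene's strand) because these 3 cell surface and basement membrane genes moved in opposite directions with TGF-β1 once the round was accounted for, as described further on. Capitals mark the SP1 box GGGCGG, or CCGCCC where it lies on the other strand. SDC4 is at chr20:45348375-45348674 (minus strand), GPC1 at chr2:240435413-240435712 (plus strand) and HSPG2 at chr1:21937261-21937560 (minus strand).
SDC4: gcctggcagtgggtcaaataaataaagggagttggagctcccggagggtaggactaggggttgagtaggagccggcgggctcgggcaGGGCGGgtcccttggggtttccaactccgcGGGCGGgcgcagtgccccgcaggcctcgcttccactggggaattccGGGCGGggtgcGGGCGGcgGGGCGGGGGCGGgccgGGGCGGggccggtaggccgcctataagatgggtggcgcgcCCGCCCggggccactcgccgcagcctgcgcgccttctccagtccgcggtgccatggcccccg
GPC1: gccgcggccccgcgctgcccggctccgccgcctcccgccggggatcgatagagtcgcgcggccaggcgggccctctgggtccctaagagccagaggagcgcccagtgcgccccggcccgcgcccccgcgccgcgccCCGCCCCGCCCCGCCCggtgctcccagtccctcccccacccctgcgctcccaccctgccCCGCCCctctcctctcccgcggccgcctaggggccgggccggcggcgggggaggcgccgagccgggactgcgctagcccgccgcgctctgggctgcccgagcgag
HSPG2: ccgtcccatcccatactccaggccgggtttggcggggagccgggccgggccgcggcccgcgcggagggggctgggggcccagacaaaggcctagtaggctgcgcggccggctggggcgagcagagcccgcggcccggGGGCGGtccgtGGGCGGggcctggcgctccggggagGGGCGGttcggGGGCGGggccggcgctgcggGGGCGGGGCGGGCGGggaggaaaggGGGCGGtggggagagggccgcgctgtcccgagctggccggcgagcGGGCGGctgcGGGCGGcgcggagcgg
Both strands were searched and overlapping matches were counted. The box occurred 8 times for SDC4, 4 times for GPC1 and 10 times for HSPG2, and at least once in 45% of 35116 promoters of the same length. These windows were 74% (SDC4), 83.3% (GPC1) and 83.3% (HSPG2) G or C, against a median of 58.7% over all promoters. The short SMAD site GTCT occurred 0 times for SDC4 and GPC1 and 1 time for HSPG2, and in 84% of all promoters. RefSeq promoters of 6 of the 10 genes were matched by symbol, also BGN, SDC1 and SDC3. In those, the SP1 box occurred 5 times for BGN, 6 times for SDC3 and 1 time in each of the windows listed for SDC1. A match is a description of letters and not a binding site.

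The 10 genes spanned from among the highest to the lowest levels of these cells. Per kb of the longest protein-coding transcript, with 2 raised to the deposited value as the level, SDC1 stood first with a median of 2949 over the 16 libraries (1644 to 3695). SDC4, the syndecan of focal adhesions, followed at 2408 (1775 to 3060) and AGRN at 988.3 (533.2 to 1341). The ranges of SDC1 and SDC4 overlapped, and AGRN lay below both in every library. GPC1, a co-receptor for heparin-binding growth factors, had a median of 300.5 per kb (251 to 406.7), and SDC3, a syndecan best known from nerve and muscle, 243.5 (191.8 to 281.7). HSPG2 had 186.3 per kb (158.9 to 226.2). Neighbours among these 3 overlapped in range, although GPC1 did not overlap HSPG2.

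DCN was the gene with the widest range, with a median level of 103.2 per kb and values from 29.81 to 1013. This 33.97-fold span overlapped HSPG2, SDC3, GPC1 and AGRN. The DCN length used was 7156 bases, and with a shorter transcript its level per kb and its place in the order could be higher. SDC2, which is typical of mesenchymal cells, had only 6.741 per kb (2.419 to 13.78) and did not overlap any other of the 10. BGN had 0.8123 per kb (0.6993 to 1.139) and LUM 0.1754 (0.1747 to 0.3096). On the log2 scale BGN lay between 0.75 and 1.45 and LUM between -0.93 and -0.10 in all libraries. The highest LUM value, -0.10, or 0.93 as a power of 2, was in the PHF8 library at 24 h of round 1. DCN was also highest there, at 12.82. DCN and LUM are neighbours on the chromosome with 0 protein-coding genes between them (RefSeq, GRCh38.p14). A link between their levels was not tested. BGN and LUM did not reach the filter for testing, and no comparison is drawn from them.

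**Figure D1:**
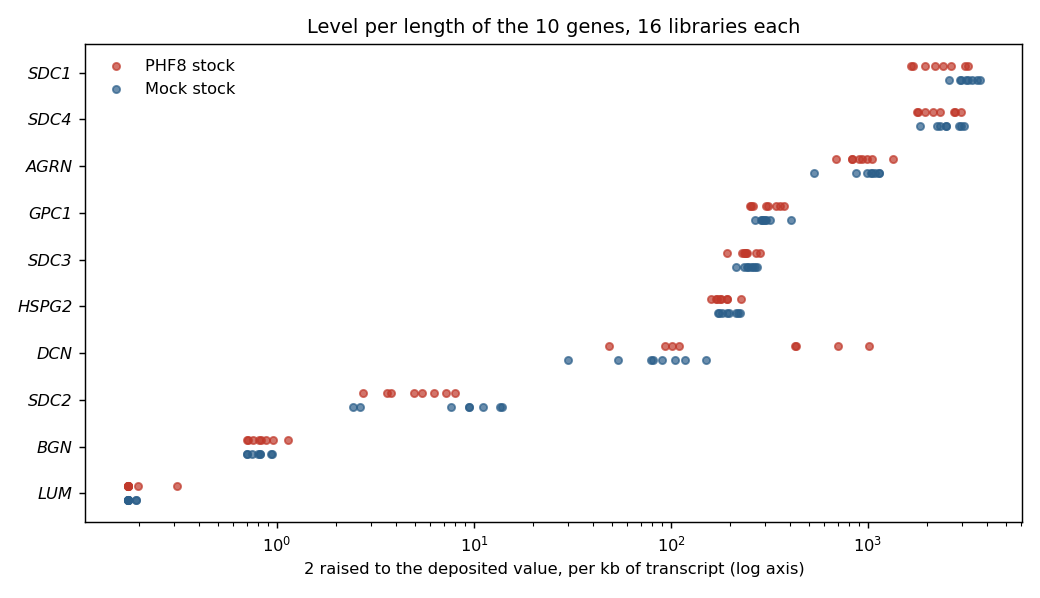
Level per length (2 raised to the deposited value, per kb of transcript, log axis) of the 10 genes, with 1 point for each of 16 libraries, PHF8 above Mock in each row. SDC1 and SDC4 lie highest, BGN and LUM lowest, and the DCN points spread from 29.81 to 1013, with 4 PHF8 points to the right of all Mock points.

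With TGF-β1, SDC2 rose, and no other of the 8 tested genes was called in the model without the round. In the mean of both stocks SDC2 was higher by 1.32 at 24 h, 1.62 at 48 h and 1.47 at 72 h on the log2 scale (each ± 0.251, model SE; limma, Benjamini-Hochberg adjusted p = 0.00246, 0.000687 and 0.00142). These are 2.5-fold, 3.08-fold and 2.78-fold on the deposited scale, which may understate changes of weakly expressed genes. So 1 of 8 genes was called at each time, against 33.3% of the 13570 genes tested at 24 h (17% higher, 16.3% lower), 31.2% at 48 h (16.2% higher, 15% lower) and 27.4% at 72 h (14.3% higher, 13.1% lower). The median difference of the 8 was 0.31, 0.33 and 0.21, and that of all tested genes -0.01, 0.00 and 0.00, at 24, 48 and 72 h.

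In PHF8 cells SDC2 had log2 levels of 3.76 and 3.36 (rounds 1 and 2) untreated, 4.56 and 3.84 at 24 h, 4.90 and 4.36 at 48 h, and 4.76 and 4.23 at 72 h. In Mock cells it had 3.18 and 3.31 untreated, 5.67 and 4.85 at 24 h, 5.15 and 5.70 at 48 h, and 5.15 and 5.38 at 72 h. Every treated library lay above both untreated libraries of its own stock. At 48 and 72 h every PHF8 library lay below every Mock library. At 24 h the higher PHF8 value, 4.56, was also below the lower Mock value, 4.85, whereas the untreated stocks were in the opposite order, the PHF8 values of 3.76 and 3.36 being above the Mock values.

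Within Mock cells SDC2 was higher by 2.01, 2.17 and 2.01 at 24, 48 and 72 h (each ± 0.355; limma adjusted p = 0.00394, 0.0022 and 0.00378), the 1 gene of 8 called there. Among all genes 17.3% were called in Mock cells at 24 h (9.91% higher), 17.3% at 48 h (9.71% higher) and 14.4% at 72 h (8.28% higher). In PHF8 cells the SDC2 differences were 0.64, 1.07 and 0.93 (limma adjusted p = 0.271, 0.0737 and 0.133), and 0 of 8 genes were called, against 11.7%, 12.6% and 9.38% of all genes at 24, 48 and 72 h. At an unadjusted p under 0.05, 0, 1 and 1 of the 8 passed in PHF8 cells. The share of all genes at this looser threshold was not taken, so these counts have no baseline. SDC2 rose in PHF8 cells at 48 h when the round was a block (adjusted p = 0.0279), and its adjusted p there was 0.156 at 24 h and 0.0553 at 72 h.

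The difference between the stocks in the SDC2 response was tested directly. The PHF8 response minus the Mock response was -1.37, -1.10 and -1.08 at 24, 48 and 72 h (each ± 0.502; limma adjusted p = 1.00 at each time). In the joint limma test over the 3 times, SDC2 had an unadjusted p of 0.0799 and an adjusted p of 1.00. By this test 0 of the 8 genes and 0% of all genes were called, with or without the block (0% in both), and 60 of 13570 genes had an unadjusted p under 0.05. The smaller SDC2 response in PHF8 cells thus did not pass the test of the difference, which does not show that the stocks responded alike. Between the stocks, PHF8 minus Mock, SDC2 differed by 0.31 untreated, -1.06 at 24 h, -0.79 at 48 h and -0.77 at 72 h (each ± 0.355), none of them called.

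Across the 16 libraries the tested genes most like SDC2 in pattern were BCAR3 (Pearson r of log2 levels = 0.9281), MAN1B1 (0.9121) and SLC38A7 (0.9116). The points share treatment groups and sequencing rounds, so these are descriptions with n = 16 libraries.

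**Figure D2:**
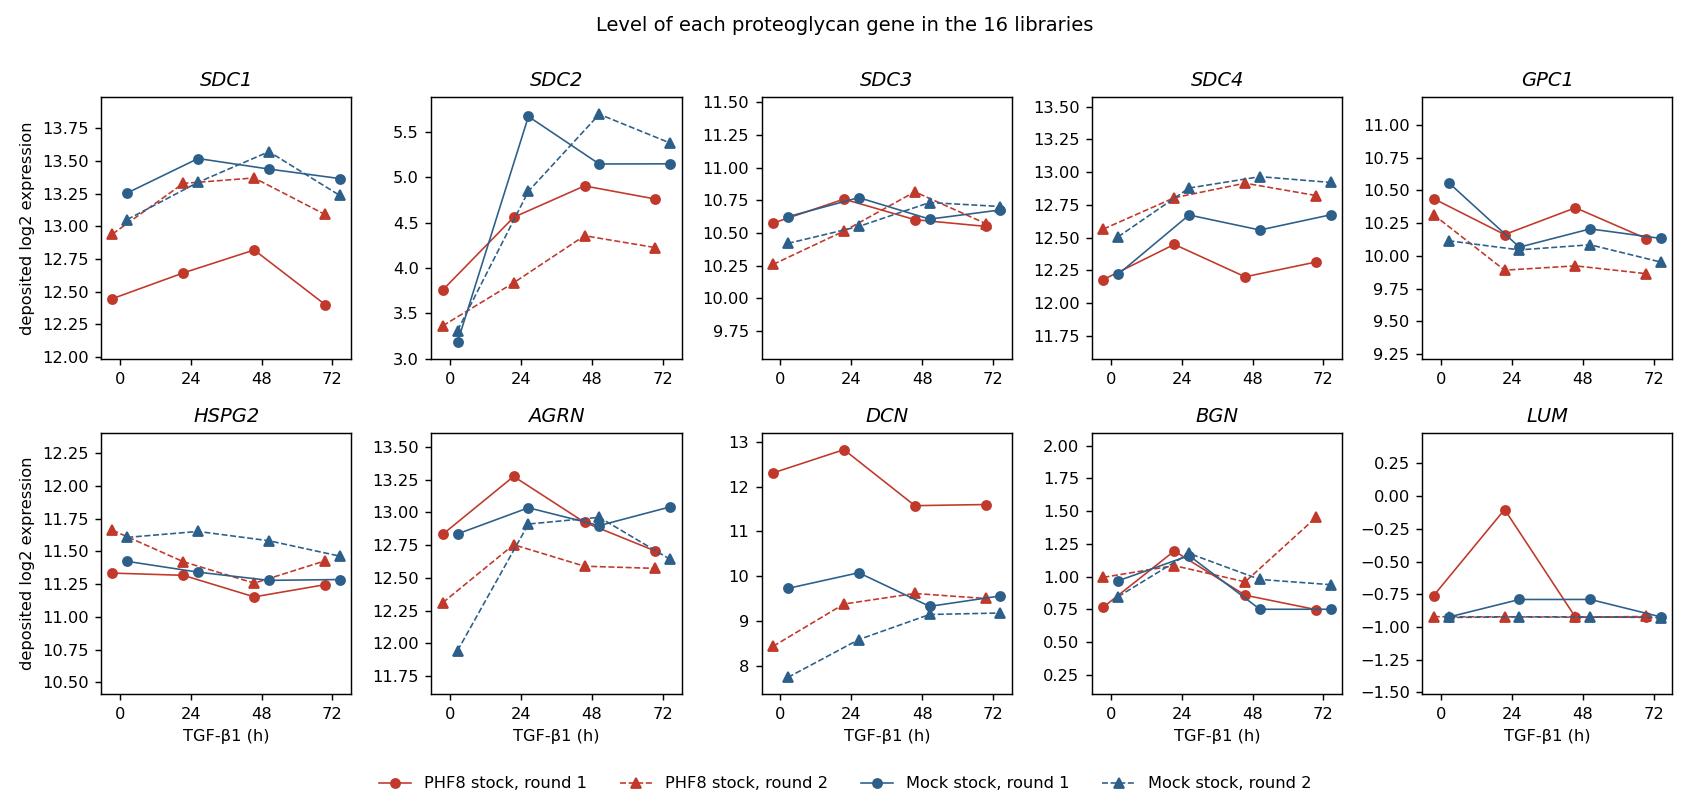
Deposited log2 expression (vertical axis, own range in each panel) of the 10 genes over hours of TGF-β1 (horizontal axis), with 1 line per stock and sequencing round and PHF8 points drawn left of Mock points. SDC2 is higher in all 12 treated libraries than in the untreated libraries of the same stock, and the DCN and SDC1 lines of PHF8 round 1 lie apart from the other 3.

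The remaining 7 tested genes gave smaller differences. The labels name the sequencing round, and libraries of 1 round deviated from their group means together (correlations of 0.207 to 0.749 over 28 pairs of groups). A model with this round as a block is therefore given as well. With the block, 4 of 8 genes were called in the mean of both stocks at 24 h (3 higher, 1 lower), 5 at 48 h (3 higher, 2 lower) and 4 at 72 h (2 higher, 2 lower). Among all genes the block gave 49.5% at 24 h (24.5% higher, 25% lower), 47.7% at 48 h (23.8% higher, 23.9% lower) and 43.7% at 72 h (21.7% higher, 22% lower). The share of the 8 was thus close to that of all genes. Within Mock cells the block called 3, 3 and 2 of 8 at 24, 48 and 72 h (all genes 35.9%, 34.9% and 31.5%), and within PHF8 cells 1, 2 and 1 (all genes 29.3%, 28.2% and 23.4%).

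SDC4 rose when the round was a block, with log2 differences of 0.33, 0.29 and 0.31 at 24, 48 and 72 h in the mean of both stocks (each ± 0.184; limma adjusted p = 0.189, 0.257 and 0.236; with the block 0.00397, 0.00863 and 0.00631). In PHF8 cells its levels were 12.18 and 12.56 untreated, 12.45 and 12.80 at 24 h, 12.20 and 12.92 at 48 h, and 12.31 and 12.82 at 72 h, rounds 1 and 2 in that order. In Mock cells they were 12.22 and 12.51 untreated, 12.67 and 12.88 at 24 h, 12.56 and 12.96 at 48 h, and 12.67 and 12.92 at 72 h. Within each round every treated library was above its untreated partner, and round 2 was higher than round 1 in all 8 groups. Over both rounds the treated and untreated libraries overlapped in PHF8 cells and did not overlap in Mock cells.

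AGRN rose at 24 and 48 h when the round was a block, with differences of 0.51 at 24 h, 0.36 at 48 h and 0.26 at 72 h (each ± 0.198; limma adjusted p = 0.0678, 0.192 and 0.376; with the block 0.0054, 0.032 and 0.117). Its levels in PHF8 cells were 12.83 and 12.31 untreated, 13.28 and 12.75 at 24 h, 12.92 and 12.59 at 48 h, and 12.71 and 12.57 at 72 h. Its levels in Mock cells were 12.84 and 11.94 untreated, 13.04 and 12.91 at 24 h, 12.90 and 12.96 at 48 h, and 13.04 and 12.64 at 72 h. The lowest of all AGRN values was that of the untreated Mock library of round 2, 11.94. Treated and untreated libraries overlapped at every time in PHF8 cells and at 72 h in Mock cells. In Mock cells at 24 and 48 h both treated libraries lay above both untreated ones. Without the untreated Mock library of round 1, AGRN was called without the block at 24 h (0.74, adjusted p = 0.0117) and 48 h (0.59, adjusted p = 0.0304). At 24 h it was also called without the untreated PHF8 library of round 1 (0.64, adjusted p = 0.0449) and without the PHF8 library at 24 h of round 2 (0.64, adjusted p = 0.0455). Without the untreated Mock library of round 2, in contrast, the AGRN differences were 0.29, 0.14 and 0.036 at 24, 48 and 72 h (adjusted p = 0.248, 0.607 and 0.91).

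GPC1 fell when the round was a block, with log2 differences of -0.31, -0.21 and -0.34 at 24, 48 and 72 h (each ± 0.129; limma adjusted p = 0.0817, 0.244 and 0.0759; with the block 0.00511, 0.0387 and 0.00404). Its levels in PHF8 cells were 10.44 and 10.31 untreated, 10.16 and 9.89 at 24 h, 10.37 and 9.92 at 48 h, and 10.13 and 9.86 at 72 h. In Mock cells they were 10.56 and 10.12 untreated, 10.07 and 10.05 at 24 h, 10.21 and 10.09 at 48 h, and 10.13 and 9.95 at 72 h. Within each stock and round the 3 treated libraries were below the untreated one. Over both rounds, treated libraries lay below both untreated ones of their stock at 24 h, and in PHF8 cells also at 72 h. They overlapped the untreated ones at 48 h in each stock and at 72 h in Mock cells. Without the untreated Mock library of round 2, GPC1 was called without the block at 24 h (-0.43, adjusted p = 0.037) and 72 h (-0.45, adjusted p = 0.0375). Without the untreated Mock library of round 1, in contrast, the GPC1 differences were -0.20, -0.10 and -0.22 at 24, 48 and 72 h (adjusted p = 0.274, 0.618 and 0.248). Over the 16 libraries SDC4 and GPC1 levels ran in opposite directions (Pearson r = -0.834, points sharing groups and rounds), the closest relation of either sign between any 2 of the 10 genes.

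HSPG2 fell at 48 and 72 h when the round was a block, with differences of -0.07, -0.19 and -0.15 at 24, 48 and 72 h (each ± 0.109; limma adjusted p = 0.646, 0.218 and 0.345; with the block 0.295, 0.0146 and 0.044). Its levels lay between 11.15 and 11.66 in PHF8 cells and between 11.28 and 11.65 in Mock cells, the narrowest range of the 8 tested genes. At 48 and 72 h all 4 libraries, 1 per stock and round, were below their untreated partner.

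SDC1 and SDC3 were not called with TGF-β1 in the model with or without the round. SDC1 differences were 0.28, 0.38 and 0.10 (limma adjusted p = 0.297, 0.172 and 0.757; with the block 0.166, 0.0747 and 0.654). SDC3 differences were 0.18, 0.22 and 0.16 (limma adjusted p = 0.193, 0.118 and 0.282; with the block 0.117, 0.0614 and 0.182). SDC1 was above its untreated partner in 4 of 4 libraries at 24 h, 4 of 4 at 48 h and 3 of 4 at 72 h, and SDC3 in 4, 3 and 3 of 4. SDC3 had levels in PHF8 cells of 10.58 and 10.26 untreated, 10.76 and 10.51 at 24 h, 10.60 and 10.81 at 48 h, and 10.55 and 10.57 at 72 h, rounds 1 and 2 in that order. In Mock cells SDC3 had 10.62 and 10.42 untreated, 10.77 and 10.55 at 24 h, 10.61 and 10.73 at 48 h, and 10.68 and 10.70 at 72 h. Treated and untreated libraries overlapped for SDC3 in both stocks with the times pooled. Taken by time, both treated libraries lay above both untreated ones at 48 h in PHF8 cells and at 72 h in Mock cells. With the 4 PHF8 libraries of round 1 left out, SDC1 was called at 48 h (0.39, adjusted p = 0.0403), and SDC2 at all 3 times (1.24, 1.58 and 1.44; adjusted p = 0.0186, 0.00723 and 0.0121).

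DCN gave differences with TGF-β1 of 0.66, 0.36 and 0.41 (each ± 0.963; limma adjusted p = 0.638, 0.814 and 0.8; with the block 0.308, 0.592 and 0.557). Its levels in PHF8 cells were 12.30 and 8.43 untreated, 12.82 and 9.38 at 24 h, 11.57 and 9.61 at 48 h, and 11.60 and 9.50 at 72 h, rounds 1 and 2 in that order. Its levels in Mock cells were 9.72 and 7.74 untreated, 10.07 and 8.58 at 24 h, 9.32 and 9.14 at 48 h, and 9.56 and 9.17 at 72 h. The rounds went opposite ways. In the mean of both stocks the difference at 48 h was -0.57 in round 1 and 1.29 in round 2, and at 72 h -0.44 in round 1 and 1.25 in round 2. At 24 h it was 0.43 in round 1 and 0.89 in round 2.

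**Figure D3:**
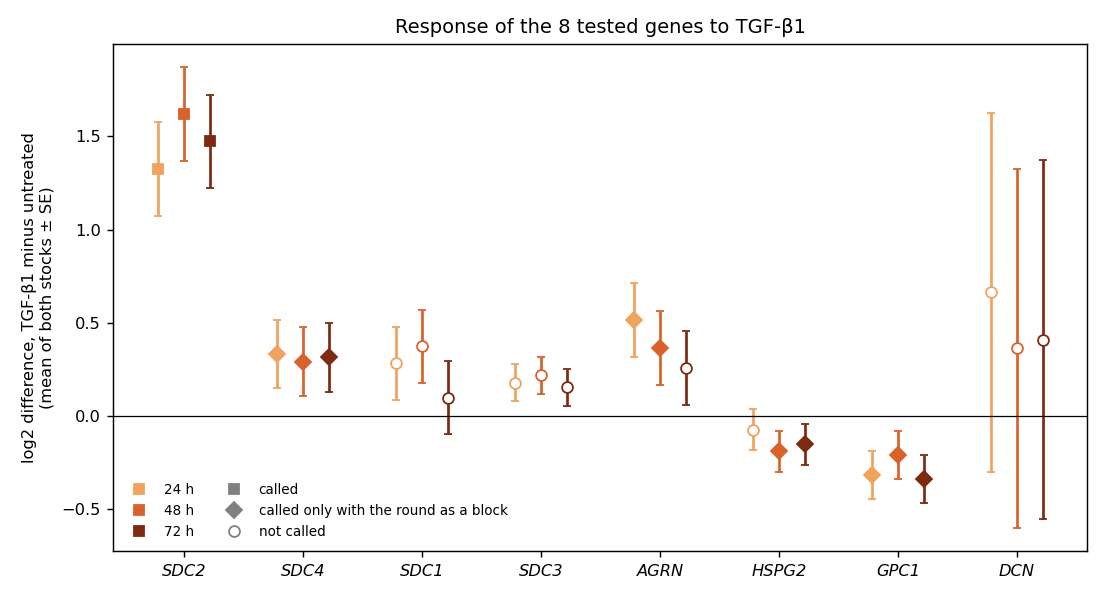
Log2 difference between TGF-β1 and untreated cells in the mean of both stocks (vertical axis, bars are the model SE) for the 8 tested genes at 24, 48 and 72 h. Squares mark genes called by limma, diamonds those called only with the round as a block and open circles those not called, and only SDC2, between 1.32 and 1.62, has squares.

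Between the stocks, 0 of the 8 genes were called in the mean over the 4 conditions in the model without the round, against 1.69% of all genes (limma). The count at an unadjusted p under 0.05 was 2 of 8. No share of all genes was taken at that looser threshold, and the shares given here are for adjusted p. With the round as a block, 3 of 8 were called, DCN higher and SDC1 and SDC2 lower, against 9.12% of all genes (5.45% higher, 3.67% lower). At each condition on its own 0 of the 8 were called. The shares of all genes called were 0.00737% untreated, 0.00737% at 24 h, 0.00737% at 48 h and 0.0147% at 72 h. With the block these shares were 0.0368%, 0.0442%, 0.0147% and 0.0958%, again with 0 of the 8 called.

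The DCN difference, PHF8 minus Mock, was 1.49 ± 0.681 on the log2 scale (limma adjusted p = 0.312; with the block 0.0286). The levels given above show that this difference lay mostly in 1 round. It averaged 2.40 in round 1 and 0.57 in round 2, and was positive at all 4 conditions in each round, from 2.04 to 2.75 in round 1 and from 0.32 to 0.79 in round 2. All 4 PHF8 libraries of round 1, between 11.57 and 12.82, lay above all other libraries, of which the highest was the Mock library at 24 h of round 1, at 10.07. Without these 4 libraries the difference was 0.07 ± 0.402 (adjusted p = 0.954), where PHF8 cells of round 2 are set against Mock cells of both rounds.

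The SDC1 difference, PHF8 minus Mock, was -0.47 ± 0.138 on the log2 scale (limma adjusted p = 0.131; with the block 0.0288). Its PHF8 levels were 12.45, 12.64, 12.82 and 12.40 in round 1 and 12.94, 13.33, 13.37 and 13.09 in round 2, at 0, 24, 48 and 72 h. Its Mock levels were 13.25, 13.52, 13.44 and 13.36 in round 1 and 13.05, 13.34, 13.57 and 13.23 in round 2. The 4 PHF8 libraries of round 1 were the 4 lowest of the 16, whereas in round 2 the stocks overlapped in range. The mean difference was -0.82 in round 1 and -0.12 in round 2. Without the PHF8 libraries of round 1 it was -0.16 (limma adjusted p = 0.592).

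A test of whether the stock difference itself varied between rounds was added after these values were seen. It called SDC1 (-0.70 ± 0.0911 for round 1 minus round 2, limma adjusted p = 0.00379) and not DCN (1.83 ± 0.478, adjusted p = 0.0535), and no other of the 8, against 4.81% of all genes. The DCN call passed 0.05 under both other scalings (adjusted p = 0.0475 with each) and when any 1 of 4 libraries was left out. These 4 were the untreated Mock library of round 1 (2.16, adjusted p = 0.0343), that of round 2 (2.16, adjusted p = 0.0343), and the PHF8 libraries at 48 h of round 1 (2.13, adjusted p = 0.0326) and round 2 (2.13, adjusted p = 0.0325). With any 1 of the other 12 libraries left out DCN was not called, the value being as low as 1.49 and the adjusted p as high as 0.135. The SDC2 stock difference of -0.58 ± 0.177 (limma adjusted p = 0.142; with the block 0.0457) was -0.29 in round 1 but -0.86 in round 2, without a called change between rounds (0.57 ± 0.277, adjusted p = 0.262).

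**Figure D4:**
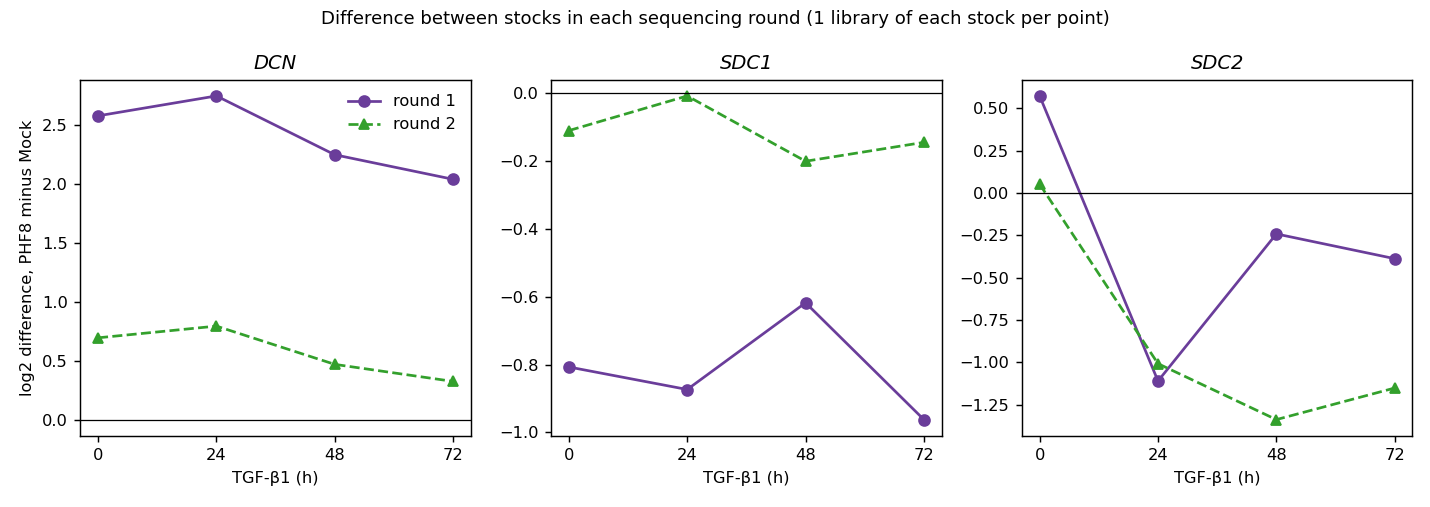
Log2 difference between PHF8 and Mock libraries (vertical axis) of DCN, SDC1 and SDC2 over hours of TGF-β1, with 1 library of each stock behind each point and 1 line per sequencing round. The DCN difference is 2.04 or more in round 1 and 0.79 or less in round 2, and for SDC1 the round 1 line lies below the round 2 line at every time.

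The other 5 tested genes differed little between the stocks, with means over the 4 conditions of -0.10 for HSPG2, -0.05 for SDC3, -0.14 for SDC4, -0.01 for GPC1 and -0.04 for AGRN (limma adjusted p between 0.56 for HSPG2 and 0.977 for GPC1). The standard errors were 0.0772 for HSPG2, 0.0702 for SDC3, 0.13 for SDC4, 0.0912 for GPC1 and 0.14 for AGRN. Without the PHF8 libraries of round 1 the SDC4 difference was 0.10, where PHF8 cells of round 2 are set against Mock cells of both rounds. SDC4 was higher in round 2 than in round 1 in both stocks. Within rounds its stock difference stayed negative, at -0.25 in round 1 and -0.04 in round 2.

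Markers of other cell types moved with the same libraries in part, and their part in the DCN and SDC1 results was not tested. In bulk RNA, fewer cells of a type and less RNA per cell cannot be told apart. The summed level of the 9 fibroblast markers (2 raised to the value), of which 4 were tested, ranged from 1502 to 7579 in PHF8 round 1, 816.1 to 7883 in PHF8 round 2, 1392 to 6081 in Mock round 1 and 680.7 to 8098 in Mock round 2, so the ranges overlapped. Of the tested fibroblast markers, COL1A2 was higher in PHF8 cells (1.07 ± 0.237, limma adjusted p = 0.0494) and the others were not called, with 1.10 ± 0.391 for COL6A3 (adjusted p = 0.2), 0.11 ± 0.186 for COL1A1 (adjusted p = 0.83) and -0.02 ± 0.165 for FAP (adjusted p = 0.963). In the treated libraries COL1A2 had levels of 4.243, 5.001 and 4.605 at 24, 48 and 72 h in PHF8 round 1, all above the highest of the other treated libraries, 4.16 in PHF8 round 2. The summed level of 8 endothelial and blood markers, of which 3 were tested, ranged from 868.1 to 1233 in PHF8 round 1, 703 to 954.2 in PHF8 round 2, 398.8 to 689.2 in Mock round 1 and 390.2 to 976.8 in Mock round 2. Of these 3, CD68 lay between 8.32 and 10.17, KDR between 4.35 and 6.83 and PECAM1 between 3.58 and 4.55. The sum was thus mostly CD68. CD3E and HBB were at 0, and VWF, CDH5 and PTPRC were below 0 in all libraries. CD68 was called higher in PHF8 cells (0.63 ± 0.138, limma adjusted p = 0.0494). Without the PHF8 libraries of round 1 neither COL1A2 (0.65) nor CD68 (0.42) was called. That fit has 1 PHF8 library per condition, so the lost calls do not by themselves show smaller differences. Within rounds 1 and 2 the differences were 1.38 and 0.76 for COL1A2 and 0.97 and 0.28 for CD68. The 12 epithelial markers summed to between 149600 and 361300 in PHF8 round 1, 178100 and 545500 in PHF8 round 2, 207100 and 465300 in Mock round 1 and 167300 and 528700 in Mock round 2. With TGF-β1 at 72 h all 4 tested fibroblast markers rose in the mean of both stocks, COL1A1 by 2.76, FAP by 2.62, COL6A3 by 3.31 and COL1A2 by 1.11, beside the rise of SDC2.

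The rest of the proteoglycan machinery was counted in 4 lists at 72 h of TGF-β1, in the mean of both stocks, where 14.3% of all genes were higher and 13.1% lower (21.7% and 22% with the round as a block). The list of other core proteins, in which the matrix protein SMOC1 was also placed, had 17 tested genes (31 listed). Of these, 5 rose and 3 fell (7 and 4 with the block), with a median of 0.33. The secreted proteoglycan SPOCK1 rose by 2.22, the TGF-β co-receptor TGFBR3 (betaglycan) fell by 2.13, and SMOC1, a secreted calcium-binding matrix protein, fell by 1.48. Of 17 tested genes for heparan sulfate synthesis and editing (21 listed), 6 rose and 2 fell (7 and 3 with the block), with a median of 0.26. The sulfotransferases HS3ST3A1 and NDST1 rose by 1.64 and 1.09, and HPSE, the heparanase that cuts the chains, fell by 1.25.

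Of 23 tested genes for the chain linker and for chondroitin and dermatan sulfate (25 listed), 12 rose and 1 fell (12 and 2 with the block), with a median of 0.43. They included PAPSS2, which makes the sulfate donor (1.71), the sulfotransferase CHST11 (1.404) and CSGALNACT1, which starts chondroitin chains (1.07). Of 16 tested ligand partners and sheddases (19 listed), 7 rose and 2 fell (10 and 2 with the block), with a median of 0.52. ITGB3 and ITGAV, which together form an integrin that works with syndecans, rose by 3.99 and 1.39, and MMP14, a membrane protease that can shed SDC1, rose by 1.24. The median over all tested genes was 0.00. The adjusted p-values of the genes named from these lists lay between 2.32e-06 for ITGB3 and 0.0107 for SMOC1 (limma).

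Between the stocks, in the mean of the 4 conditions, where 1.69% of all genes were called, 1 gene of the core protein list was called (SMOC1, 1.30 ± 0.254 higher in PHF8 cells, limma adjusted p = 0.0335), 1 of the heparan sulfate list (SULF1, a sulfatase that edits the chains outside the cell, 1.64 ± 0.310 higher, adjusted p = 0.0298), 1 of the chondroitin list (UST, a sulfotransferase, 0.77 ± 0.0932 higher, adjusted p = 0.00401) and 0 of the partners. With the block, 9.12% of all genes were called. The counts were then 3 genes of the core protein list (1 higher, 2 lower), 4 heparan sulfate genes (3 higher, 1 lower), 3 chondroitin genes (all higher) and 1 partner (higher). As with DCN, these differences were larger in round 1. They were 1.91 (round 1) and 0.70 (round 2) for SMOC1, 2.52 and 0.75 for SULF1, and 0.95 and 0.58 for UST. Without the PHF8 libraries of round 1 none of the 3 was called (SMOC1 0.85, adjusted p = 0.322; SULF1 1.11, adjusted p = 0.342; UST 0.70, adjusted p = 0.191), and over all genes 4 were.

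**Figure D5:**
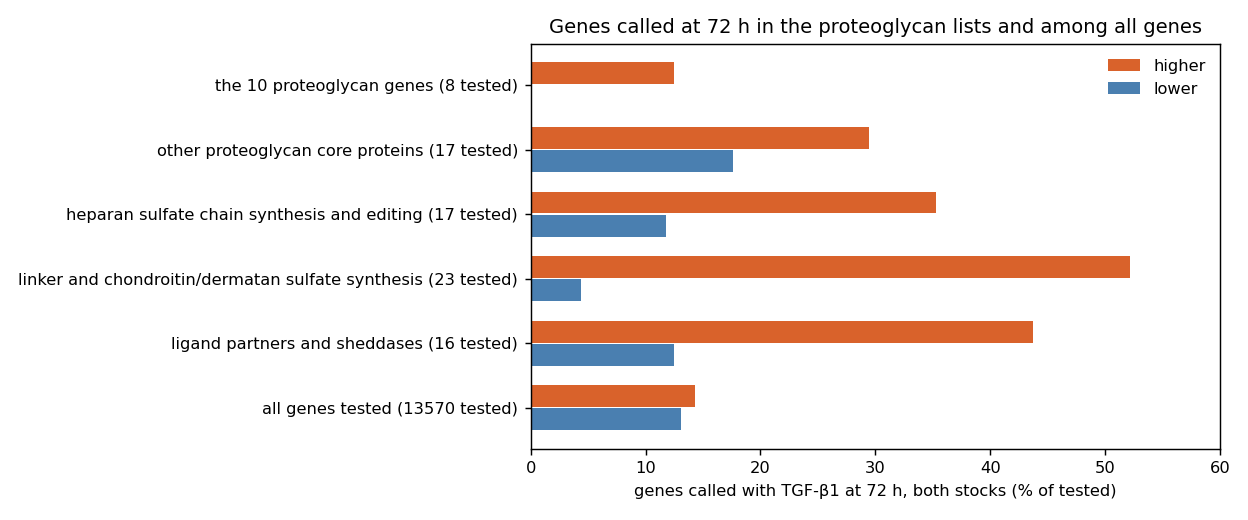
Share of tested genes called with TGF-β1 at 72 h in the mean of both stocks (horizontal axis, percent of those tested, starting at 0), higher and lower apart, for the 10 genes, the 4 lists and all genes. The linker and chondroitin list has 12 of 23 genes higher, the 10 genes have SDC2 alone of 8 tested, and all genes have 14.3% higher and 13.1% lower.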

How the data were processed

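Total RNA depleted of ribosomal RNA was sequenced with paired-end reads of 50 bases in 16 libraries, per the labels' protocols. Per the submitters' processing notes, the authors aligned reads to hg19 with TopHat2 2.0.13, counted them with featureCounts of Subread 1.4.6 and used DESeq2, with no version given; the strand setting of the counting and the transformation are not given in the sources used here. The deposited values are log2 expression on the scale of normalised read counts, with weak genes lying close to their own mean, so no interval from counts is given. A further 4 columns, whose names correspond to none of the samples, stayed out.

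The 23368 entries were filtered as the report states, leaving 13570 genes. Entries at 0 in all libraries (4064) were left out. No pseudocount was added. The 8 group means were estimated jointly from the 16 libraries with limma 3.58.1 in R 4.3.3 (mean-variance trend, 8 residual degrees of freedom, 7 with the round as a block), with Benjamini-Hochberg adjustment over all tested genes; called means an adjusted p below 0.05. Standard errors are those of the model. The fit was tested on simulated data. Replicate numbers pair the libraries because the labels tie each number to a sequencing round. The deviations from group means correlated between groups (0.207 to 0.749, median 0.461, 28 pairs of groups).

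The genes, lists and tests were chosen with earlier results of these data known. Named genes were all 10 members, the 3 list genes per list with the largest called difference at 72 h, the 3 genes most like a called member, PHF8 and SMAD7 (a further gene of this rule is not reported here); TP63, CDH1 and the other markers and the list genes that differed between stocks were chosen for naming after seeing values. The 4 lists and the cell type markers held 132 symbols, all found, 93 tested. Lengths are those of the longest protein-coding transcript in the annotation used. Alternatives were the round as a block, no filter, a filter at 50, no trend, other scalings, only the groups compared, and each library left out in turn; tests by round and a fit without the PHF8 libraries of round 1 were added after the data were seen.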

Additional observations from a re-analysis of the deposited data

Results flagged for a closer look

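The difference in SDC1 between PHF8 and Mock cells was -0.82 in round 1 and -0.12 in round 2. The change of -0.70 on the log2 scale passed a test of the difference itself that was added after these values were seen and is no independent support (limma with Benjamini-Hochberg adjustment, adjusted p = 0.00379). With any 1 library left out the change stayed between -0.77 and -0.66 (adjusted p between 0.00337 and 0.0175).

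The DCN response to TGF-β1 differed between rounds by -1.86 at 48 h and by -1.69 at 72 h, round 1 minus round 2. At both times the PHF8 and the Mock library of round 1 were below their untreated partners, and both libraries of round 2 were above theirs. At 48 h the changes were -0.73 (PHF8) and -0.40 (Mock) in round 1 and 1.18 (PHF8) and 1.41 (Mock) in round 2. At 72 h they were -0.71 (PHF8) and -0.17 (Mock) in round 1 and 1.07 (PHF8) and 1.44 (Mock) in round 2. These differences between rounds were not tested.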

How the results depend on the processing

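With the sequencing round as a replicate block, which pairs the libraries, the numbers of the 8 tested genes called were 3, 3 and 2 at 24, 48 and 72 h in Mock cells, 1, 2 and 1 in PHF8 cells, 4, 5 and 4 in the mean of both stocks, and 3 between the stocks. It gained 22 calls among 112 differences, lost 0 and turned 0. It changed no other count. Over all genes, the count between the stocks was 229 without and 1237 with the block, 60 (without the PHF8 library at 72 h of round 1) to 286 with any 1 library left out, and 4 without the PHF8 libraries of round 1.

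With 1 library left out, counts ranged from 1 to 2 in Mock cells at 24 and 48 h and in the mean of both stocks at 24, 48 and 72 h. Such fits leave 1 library in a group, so these counts are no result about the genes as a set. Without the 4 PHF8 libraries of round 1, the mean difference of both stocks at 48 h was 0.39 for SDC1 and 1.58 for SDC2. Of the 112 differences, 42 changed sign when some library was left out, 0 lost a call and 6 gained one. None of the sign changes was in a called difference. Among reported ones, the stock difference ranged from -0.15 to 0.073 for AGRN and from -0.065 to 0.046 for GPC1. DCN with TGF-β1 ranged from -0.30 to 1.63 at 24 h, -0.61 to 1.33 at 48 h and -0.56 to 1.38 at 72 h, and DCN between untreated stocks from -0.30 to 3.57. HSPG2 at 24 h ranged from -0.16 to 0.0083 and SDC1 at 72 h from -0.073 to 0.27. In the fit without the PHF8 libraries of round 1, DCN between untreated stocks was -0.30 and the SDC4 stock difference 0.10. That fit sets PHF8 cells of round 2 against Mock cells of both rounds. Within rounds 1 and 2 neither sign turned, with 2.58 and 0.69 for DCN and -0.25 and -0.04 for SDC4. The cause of the other sign changes was not tested.

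Filters, trend, scalings and fits of only the groups compared turned 2 of the 112 differences, neither reported here, and changed none of their calls. The largest shift of the median of all genes by a scaling was 0.0344. Fits of only the groups compared changed the counts over all genes by more than 1.5 times within PHF8 cells (73, 356 and 230 at 24, 48 and 72 h, against 1590, 1710 and 1273) and in Mock cells at 24 and 48 h (1332 and 1104, against 2349 and 2348). Counts over all genes within each stock also varied in the separate fits to all groups with 1 library left out. Without the untreated library of round 2 of the same stock these counts were lowest, at 650, 792 and 619 in Mock cells and 329, 567 and 393 in PHF8 cells. With 2 libraries a group and unknown depth, the values of SDC2, BGN and LUM may be compressed by an unknown amount.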
